A study of Mus musculus with 97 samples.

Results

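The 10 genes Hspa1a, Hspa1b, Hsph1, Dnajb1, Hsp90aa1, Hspb1, Hspa8, Hspe1, Hspd1 and Bag3 encode heat shock chaperones and chaperone partners. They were taken by gene symbol from a deposited table of 51368 mouse genes, and all 10 passed the filter on low counts in every experiment. In hearts of mice given naproxen and tryptophan, 9 of the 10 were measured above PBS-injected controls. The log2 differences of these 9 ran from 0.08 for Bag3 to 1.28 for Hspa1a and 1.46 for Hspa1b, the inducible HSP70 pair. In jejuna of mice given naproxen, the fitted differences of 8 of the 10 lay below 0, between -0.51 (Hspa1b) and -0.18 (Hspd1). None of these differences passed an adjusted p of 0.05 with edgeR's quasi-likelihood test, so values, spreads and intervals are given for each. DESeq2, an alternative, called 5 of the 10 in those hearts (4.03% of genes with its adjusted p) and 1 in those jejuna (0.575%).

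Chaperones bind unfolded or damaged proteins and help them to fold, to stay in solution or to be degraded. Cytosolic HSP70 proteins (Hspa1a, Hspa1b and Hspa8) work in cycles of ATP hydrolysis that J proteins such as Dnajb1 start and exchange factors such as Hsph1 and Bag3 reset. Hsp90aa1 takes over clients such as steroid receptors and kinases, Hspb1 is a small heat shock protein that holds unfolded proteins without ATP, and Hspd1 with its lid Hspe1 forms the folding chamber of mitochondria. The transcription factor Hsf1 induces most of these genes after heat or other protein-damaging stress by binding inverted GAA repeats in their promoters. Heart muscle relies on Bag3, Hspb1 and HSP70 for the turnover of stretched sarcomere proteins, and Hspa1a and Hspa1b are textbook markers of acute tissue stress.

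The study asked how anti-inflammatory drugs and tryptophan change gene expression in mouse heart and jejunum. All mice were C57BL/6 and 11 weeks old, and each experiment was a separate cohort, with 97 animals and as many libraries in 14 groups. Naproxen (1323 ppm in females, 1610 ppm in males) and celecoxib (550 ppm), both inhibitors of prostaglandin-forming cyclooxygenases, were mixed into the chow for 3 weeks. Tryptophan, the amino acid precursor of serotonin and kynurenine, was injected into the peritoneum daily at 50 mg/kg in the last week, and the other mice were injected with PBS except in experiment 1, where no mouse was injected. The 59 hearts came from experiment 1 (naproxen and control, 5 females and 5 males each), experiment 2 (naproxen plus tryptophan, n = 8; naproxen, n = 7; control, n = 8; all female) and experiment 3 (tryptophan and control, n = 8 each, female). The 38 jejuna came from experiment 4 (naproxen plus tryptophan, n = 7; naproxen, n = 7; celecoxib, n = 8; tryptophan, n = 8; control, n = 8; all female). Whole hearts and 30 mg of flushed jejunum were used, so each library mixes all cell types of the organ, and fewer cells of a type and less RNA per cell cannot be told apart.

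Hspa1a and Hspa1b are neighbouring copies, and their near identity bears on every value given for them. In GRCm38, Hspa1a lies at chr17:34969190-34972156 and Hspa1b at chr17:34956436-34959238, both on the minus strand and each with 1 exon in the GENCODE annotation. Their coding sequences differ at 10 of 1929 aligned bases (99.5% identity), and the transcripts share an identical run of 638 bases. The split of reads between them is therefore uncertain, and the sum of both was tested as well. In RefSeq's table of gene starts on GRCm38.p6, which holds 8 of the 10 genes, the 250 bases upstream of the starts of Hspa1a and Hspa1b differ at 3 positions. A pair of inverted GAA repeats (GAANNTTC or TTCNNGAA, where N is any base, searched on both strands) occurred for 5 of the 8 genes in the window of the start nearest the GENCODE 5′ end, against 12.8% of 32851 windows in the table. Counting every start in the table it was 6 of 8, since a second start of Hspd1, 311 bases from the first, has 3 matches in its window, in the promoter shared with Hspe1. Hspa1a and Hspa1b, whose windows are near copies, each count among the 5. The 12.8% is a share of single windows, so the 6 of 8 genes by any start has no like background. The genes were taken as heat shock genes, so neither count is a test. A match to these letters is a description of the sequence and not a measured binding site. No match lay in the nearest-start windows of Dnajb1, Hspd1 and Bag3, and Hspa8 and Hsp90aa1 are not in the table. The stretches that hold the matches are printed 5′ to 3′ along each gene's own strand, with the matches in capitals. The Hspa1a stretch covers bases -150 to -21 before the start at chr17:34972177-34972306 (minus strand), and the Hspa1b stretch at chr17:34959259-34959388 (minus strand) has the same 130 bases. The Hspb1 stretch covers the same distance at chr5:135887769-135887898 (plus strand) and holds 2 matches. The Hsph1 stretch of 30 bases lies at chr5:149636351-149636380 (minus strand), partly within its annotated first exon. Its match lies inside that exon, downstream of the GENCODE 5′ end. The Hspe1 stretch of 30 bases at chr1:55088053-55088082 (plus strand) lies in the head-to-head promoter shared with Hspd1, inside annotated exon sequence of that gene, and holds 3 overlapping matches.
Hspa1a and Hspa1b: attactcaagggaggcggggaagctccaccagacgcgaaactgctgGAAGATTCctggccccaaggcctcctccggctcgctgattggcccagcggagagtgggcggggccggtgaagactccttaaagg
Hspb1: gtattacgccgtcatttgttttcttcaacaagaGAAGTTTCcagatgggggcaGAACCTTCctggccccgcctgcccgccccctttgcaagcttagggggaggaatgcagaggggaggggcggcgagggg
Hsph1: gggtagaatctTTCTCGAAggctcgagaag
Hspe1: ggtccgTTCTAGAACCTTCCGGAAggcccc

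Libraries held 26295720 to 76357609 estimated counts in hearts and 10107247 to 28537536 in jejuna. Heart libraries were made from poly-A RNA and jejunum libraries by removal of ribosomal RNA, which the labels tie to RNA integrity numbers below 8. The summed cardiomyocyte markers reached 27700 to 64040 CPM (counts scaled to a common library total) in hearts and 13.7 to 76.3 in jejuna, and summed enterocyte markers 10180 to 45680 in jejuna and 0.0680 to 3.76 in hearts, so the defining markers of each labelled tissue were present. Levels below are CPM as well, after scaling by the trimmed mean of M-values within each experiment. Fold changes are log2 values of the first group over the second from one model per experiment, "adjusted p" is Benjamini-Hochberg over all genes tested, and ranges in brackets after a fold change are 95% intervals from the model. A share of all genes given for DESeq2 counts only genes with a DESeq2 adjusted p.

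Per kilobase of transcript, Hspa8, the constitutive HSP70, had the highest level of the 10 in both tissues, with medians of 530 CPM per kb in control hearts and 492 in control jejuna. In hearts Hspd1 (153), Hspe1 (90.4), Hspb1 (84.7), Bag3 (72.1) and Hsp90aa1 (41.1) came next, followed by Hsph1 (11.6), Dnajb1 (5.93), Hspa1a (1.57) and Hspa1b (1.34). In jejuna the order after Hspa8 was Hspe1 (78.0), Hsp90aa1 (50.3), Hspd1 (47.3), Dnajb1 (13.8), Hspb1 (11.1), Hsph1 (9.42), Bag3 (6.74), Hspa1b (4.2) and Hspa1a (2.51). Bag3 and Hspb1, which serve contracting muscle, thus stood higher in the order of the pooled control hearts than in that of the control jejuna. Over control hearts the ranges per kilobase of Hspd1 (90.8 to 227), Hspe1 (59.6 to 177), Hspb1 (20.8 to 118), Bag3 (43.2 to 84.2) and Hsp90aa1 (24.6 to 101) overlapped between neighbours, as did those of Hsph1, Dnajb1, Hspa1a and Hspa1b, while Hspa8 (449 to 636) stood clear. The order differed between cohorts. Hspb1 had a median of 34.5 CPM per kb in the 10 controls of experiment 1, below Hsp90aa1 (60.7) and Bag3 (56.8), but 87.1 and 96.1 in the controls of experiments 2 and 3, above both. Over control jejuna Hspa8 (361 to 542) stood clear as well, and each neighbouring pair below it overlapped except Hspd1 and Dnajb1. No order was tested. Tissue, cohort and library kit differ together in these levels.

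In hearts of experiment 2, the inducible HSP70 pair and its J protein were measured higher with naproxen plus tryptophan than in controls. Hspa1a had 2.33 to 13.4 CPM (median 3.84) in naproxen plus tryptophan hearts, against 1.05 to 4.59 CPM (median 1.84) in control hearts. All 8 treated hearts lay above the control median and 2 lay above the highest control, so the groups overlapped. Hspa1b had 2.21 to 13.2 CPM (median 3.59) in naproxen plus tryptophan hearts, against 0.604 to 3.77 CPM (median 1.58) in control hearts. Again all 8 treated hearts lay above the control median, and 3 lay above the highest control. The log2 fold change was 1.28 ± 0.37 for Hspa1a (SE; 0.51 to 2.05; edgeR adjusted p = 0.114). For Hspa1b it was 1.46 ± 0.38 (0.67 to 2.25; adjusted p = 0.0907). The sum of the pair, which does not depend on how reads were split, gave 1.37 ± 0.37 (adjusted p = 0.103). Naproxen plus tryptophan replicate 7 had the highest level of its group for 7 of the 10 genes (all but Hspb1, Hspa8 and Hspe1), and without it the differences were 0.86 for Hspa1a and 1.03 for Hspa1b.

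Hspa8, Dnajb1 and Hspb1 had smaller differences, with all 8 treated hearts above the control median for each. Hspa8 had 1246 to 1591 CPM (median 1464) in naproxen plus tryptophan hearts, against 1074 to 1342 CPM (median 1142) in control hearts. All 8 treated hearts exceeded the control median and 6 exceeded the highest control. Its log2 fold change was 0.29 ± 0.08 (0.13 to 0.44; adjusted p = 0.0938). Dnajb1, which delivers clients to HSP70, had 18.9 to 35.3 CPM (median 23.5) in naproxen plus tryptophan hearts, against 13.5 to 24.3 CPM (median 17.2) in control hearts. All 8 exceeded the control median and 3 the highest control, with a log2 fold change of 0.53 ± 0.15 (0.23 to 0.83; adjusted p = 0.103). Hspb1, the small heat shock protein that guards actin and desmin filaments, had 84.6 to 129 CPM (median 92.3) in naproxen plus tryptophan hearts, against 57.6 to 96.8 CPM (median 78.6) in control hearts. It also exceeded the control median in 8 of 8 hearts, by 0.33 ± 0.10 on the log2 scale (0.13 to 0.53; adjusted p = 0.113).

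Hspe1, the mitochondrial lid protein, had 60.4 to 124 CPM (median 86.9) in naproxen plus tryptophan hearts, against 46.1 to 105 CPM (median 66.5) in control hearts, a log2 difference of 0.40 ± 0.19 (adjusted p = 0.266). Its partner Hspd1, transcribed head to head with it, differed by -0.06 ± 0.09 (adjusted p = 0.797). Hsp90aa1, the inducible HSP90, had 85.6 to 155 CPM (median 112.5) in naproxen plus tryptophan hearts, against 80.8 to 114 CPM (median 96.2) in control hearts. The Hsp90aa1 difference was 0.21 ± 0.10 (adjusted p = 0.288) and 0.13 without naproxen plus tryptophan replicate 7. For Hsph1, an exchange factor of HSP70, the difference was 0.25 ± 0.14 (adjusted p = 0.371) and 0.08 without that heart. Bag3 differed by 0.08 ± 0.13 (adjusted p = 0.8), with an interval of -0.19 to 0.35. Groups without overlap were found for 0 of the 10 genes, and for 0.311% of all genes.

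By edgeR, 0 of the 10 genes passed the adjusted threshold in naproxen plus tryptophan against control, as did 0.255% of all 16085 genes tested. At an unadjusted p under 0.05, 7 of the 10 passed, against 17.2% of all genes. The median log2 fold change of all 10 was 0.31, against 0.00 for the median gene. The 10 genes were chosen with earlier results of these data known, and some of them vary together between animals. Setting them against all genes, here and below, is therefore a description and no test. DESeq2, run as an alternative, called 5 of the 10 in this comparison, which were Hspa1b (adjusted p = 0.00732), Hspa8 (0.00846), Hspa1a (0.0189), Dnajb1 (0.0221) and Hspb1 (0.0287), among 460 genes called in all (4.03% of those with an adjusted p), against 41 by edgeR. The call of these 5 genes thus differs between the tools.

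**Figure D1:**
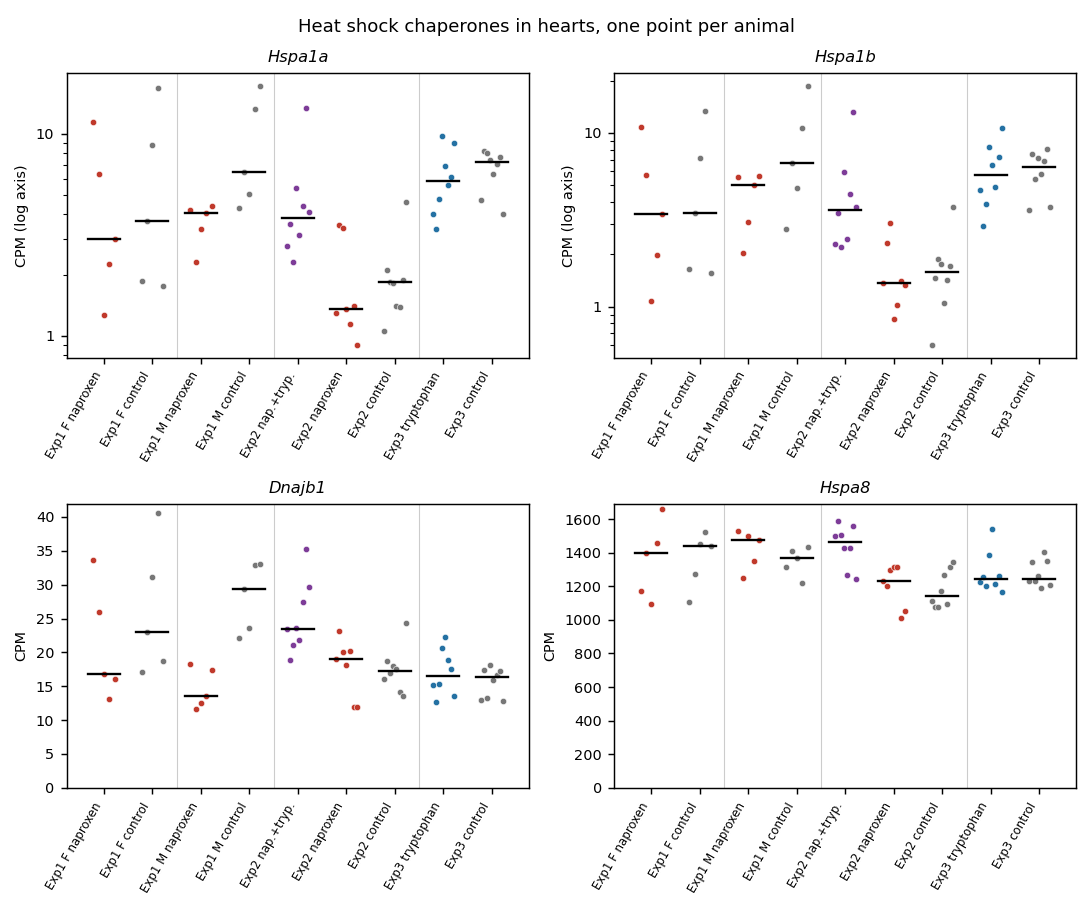
CPM of Hspa1a, Hspa1b (log axes), Dnajb1 and Hspa8 (linear axes from 0) in each heart, with a bar at the group median and 1 point per animal. In experiment 2 all 8 naproxen plus tryptophan hearts lie above the control median for the 4 genes, while in experiment 1 the 5 naproxen males lie below all 5 control males for Dnajb1.

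Set against naproxen alone, the same 5 genes led. This contrast covers tryptophan added on top of naproxen. Experiment 2 had no group given tryptophan alone, so an effect of tryptophan and a joint effect with the drug cannot be told apart. Hspa1a had 0.904 to 3.52 CPM (median 1.35) in naproxen hearts, and 5 of the 8 naproxen plus tryptophan hearts lay above that range. The log2 differences between naproxen plus tryptophan and naproxen were 1.38 ± 0.39 for Hspa1a (adjusted p = 0.254), 1.53 ± 0.40 for Hspa1b (adjusted p = 0.175) and 0.50 ± 0.15 for Dnajb1 (adjusted p = 0.307). They were 0.27 ± 0.10 for Hspb1 (adjusted p = 0.406) and 0.26 ± 0.08 for Hspa8 (adjusted p = 0.307). Without naproxen plus tryptophan replicate 7 the differences were 0.97 for Hspa1a and 1.11 for Hspa1b. That of Hspb1 was 0.20 without naproxen plus tryptophan replicate 5. By edgeR 0 of the 10 passed the adjusted threshold (0.0933% of all genes did) and 5 passed unadjusted (9.8% of all genes). DESeq2 called 2 of the 10, Hspa1b (adjusted p = 0.0168) and Hspa1a (adjusted p = 0.0369), and 0.497% of all genes. This comparison and the one with controls share the naproxen plus tryptophan hearts.

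Naproxen alone against control, in the same experiment, had all 10 genes measured near control. The log2 fold changes ran between -0.10 (Hspa1a, interval -0.90 to 0.70) and 0.10 (Hspe1, interval -0.30 to 0.49). The intervals were narrow for Hspa8 (-0.13 to 0.19) and wide for the low-count pair, and the Hspa1b interval of -0.89 to 0.75 leaves room for changes in either direction. None of the 10 passed by either tool, with 0 of 10 genes past edgeR's adjusted threshold (0% of all genes), 0 past the unadjusted one (3.63% of all genes) and 0 called by DESeq2 (0.0373% of all genes).

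Among other chaperones in naproxen plus tryptophan against control hearts, none passed the adjusted threshold. At an unadjusted p under 0.05, 17.2% of all genes passed in this comparison. All 8 subunits of the TRiC chaperonin, which folds actin and tubulin, were measured higher, 6 of them at an unadjusted p under 0.05, with a median log2 fold change of 0.13. Of 12 genes for the constitutive HSP90 and its partners, such as Stip1 and Ahsa1, 11 were measured higher and 4 passed unadjusted (median 0.12). Of 16 chaperones of the endoplasmic reticulum, 6 were measured higher and 10 lower (median -0.05), with 1 past the unadjusted threshold, lower. The median summed level of other cytosolic HSP70 and HSP110 genes was 265.6 CPM in naproxen plus tryptophan hearts, against 272.9 CPM in control hearts. In the same order it was 851.8 and 820.5 CPM for cytosolic J proteins and 479.2 and 446.5 CPM for exchange factors. It was 4009 and 3903 CPM for small heat shock proteins and 1230 and 1161 CPM for mitochondrial chaperones. Ranges overlapped for each list and no sum was tested. Hsf1 itself had 21.6 to 28.0 CPM (median 26.2) in naproxen plus tryptophan hearts, against 21.2 to 28.2 CPM (median 25.4) in control hearts, a log2 difference of 0.05 ± 0.07 (adjusted p = 0.760). Immediate early genes, which respond to handling and acute stress within the hour, were measured higher in 12 of 19 cases, 7 of them unadjusted (median 0.23). All 3 of the 6 neutrophil markers that could be tested were higher (median 1.36, 2 unadjusted), with summed levels of 0.241 to 9.51 CPM in naproxen plus tryptophan hearts, against 0.442 to 2.64 CPM in control hearts. The summed cardiomyocyte markers had 44340 to 58930 CPM in naproxen plus tryptophan hearts, against 41720 to 60810 CPM in control hearts. The part of these other genes in the chaperone differences was not tested.

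In experiment 1, which tested naproxen in uninjected mice, Dnajb1 and the HSP70 pair were measured lower in naproxen males. Dnajb1 had 18.2, 11.7, 12.5, 13.5 and 17.3 CPM in naproxen males, against 22.1, 29.4, 23.6, 32.9 and 33.1 CPM in control males. The groups did not overlap. This held for 1 of the 10 genes in this comparison, against 3.1% of all genes. Its log2 fold change was -0.94 ± 0.25 (-1.48 to -0.41; adjusted p = 0.409), ranked 50 by p among 15152 genes. Leaving out each heart in turn gave -1.04 to -0.87. Hspa1a had 4.22, 2.31, 3.38, 4.06 and 4.38 CPM in naproxen males, against 4.28, 6.5, 5.02, 13.2 and 17.2 CPM in control males, so 4 of 5 treated hearts lay below the lowest control. The log2 fold change of Hspa1a was -1.33 ± 0.63 (adjusted p = 0.649). Hspa1b had 5.61, 2.04, 3.09, 4.98 and 5.67 CPM in naproxen males, against 2.79, 6.69, 4.82, 10.7 and 18.6 CPM in control males, and differed by -1.02 ± 0.65 (adjusted p = 0.746). Without control male replicate 10, the heart with the highest levels, the differences were -0.99 for Hspa1a and -0.55 for Hspa1b. The other 7 genes lay between -0.24 and 0.11 log2 units, Hspb1 and Hspd1 at the ends.

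In females of experiment 1 the same genes varied widely within each group. Hspa1a had 11.4, 6.31, 1.27, 2.26 and 3.02 CPM in naproxen females, against 1.86, 3.70, 8.80, 16.8 and 1.76 CPM in control females. The groups overlapped almost fully, and the log2 fold change was -0.43 ± 0.62 (adjusted p = 0.871). Dnajb1 had 33.7, 26.0, 16.8, 13.1 and 16.1 CPM in naproxen females, against 17.1, 23.0, 31.1, 40.5 and 18.8 CPM in control females (-0.31 ± 0.25; adjusted p = 0.8). The hearts with the highest Hspa1a, naproxen replicate 1 and control replicate 4, also had the highest Dnajb1 of their groups. Hspe1 had 54.8, 61.1, 51.2, 55.2 and 54.8 CPM in naproxen females, against 52.6, 55.1, 66.6, 79.0 and 78.7 CPM in control females. This was the 1 member past the unadjusted threshold in females, at -0.26 ± 0.12 (adjusted p = 0.696), and the groups overlapped. Without control female replicate 4 its difference was -0.16, and with DESeq2, with no filter or with the replicate block 0 of the 10 genes passed unadjusted in females.

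In females 0 of the 10 genes passed edgeR's adjusted threshold (0.0132% of all genes did) and 0 in males (0% of all genes). At an unadjusted p under 0.05, 1 of 10 passed in females (7.14% of all genes) and 2 of 10 in males (7.68% of all genes). DESeq2 called 0 of them in females (0.343% of all genes) and 0 in males (1.08% of the genes it gave an adjusted p), but in males its filter left Hspa1a, Hspa1b and Dnajb1 without an adjusted p. The difference between the sexes in the naproxen effect, males minus females, was -0.64 ± 0.36 for Dnajb1 (adjusted p = 0.759) and -0.90 ± 0.88 for Hspa1a (adjusted p = 0.799). For that difference edgeR called 0 of 10 genes (0% of all genes), 0 passed unadjusted (5.05% of all genes), and DESeq2 called 0 (0.0066% of all genes). Sex and naproxen dose, 1610 ppm in males and 1323 ppm in females, cannot be told apart in this difference. In the males, 19 immediate early genes were tested and 18 were measured lower, 6 of them unadjusted (median log2 fold change -0.34), in the same comparison in which Dnajb1 and Hspa1a were lower. The summed erythroid markers ran from 1454 to 13770 CPM in naproxen males, against 1279 to 3963 CPM in control males. The part of either in the chaperone values was not tested.

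The naproxen effect in injected females of experiment 2 was set against that in uninjected females of experiment 1, in a joint model. The differences between cohorts, experiment 2 minus experiment 1, ran from -0.17 (Bag3) to 0.33 (Hspe1), with standard errors up to 0.76 (Hspa1a). The interaction test of edgeR called 0 of 10 genes (0.00618% of all genes), 0 passed unadjusted (3.49% of all genes), and DESeq2 called 0 (0.0557% of all genes). Injection and cohort cannot be told apart in this contrast.

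Tryptophan without naproxen, was tested in experiment 3, and the 10 genes were measured close to control. Hspa1a had 3.38 to 9.71 CPM (median 5.85) in tryptophan hearts, against 4.00 to 8.24 CPM (median 7.24) in control hearts. The ranges covered each other, and the log2 fold change was -0.12 ± 0.12 (-0.39 to 0.14; adjusted p = 1). Hspa1b differed by 0.01 ± 0.16 (-0.33 to 0.34) and Hspa8 by 0.00 ± 0.06 (-0.12 to 0.13). Dnajb1 differed by 0.12 ± 0.09 (-0.06 to 0.31; adjusted p = 1). Neither tool called any of them, with 0 of 10 past edgeR's adjusted threshold (0% of all genes), 0 unadjusted (2.9% of all genes) and 0 by DESeq2 (0.0127% of all genes). The controls of experiment 3 had more Hspa1a than the injected controls of experiment 2 (4.00 to 8.24 against 1.05 to 4.59 CPM), and the naproxen plus tryptophan range of experiment 2 overlapped both. Levels were scaled within each experiment, and no test was made across cohorts.

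In the jejunum, several of the same genes were measured lower with naproxen. Hspa8 had 622 to 1116 CPM (median 768) in naproxen jejuna, against 863 to 1297 CPM (median 1177) in control jejuna. All 7 naproxen jejuna lay below the control median and 5 lay below the lowest control. Its log2 fold change was -0.45 ± 0.12 (-0.70 to -0.21; adjusted p = 0.170), ranked 54 by p among 17185 genes. Dnajb1 had 22.4 to 38.2 CPM (median 35.9) in naproxen jejuna, against 33.4 to 57.6 CPM (median 41.4) in control jejuna. All 7 again lay below the control median and 3 below the lowest control, with a log2 fold change of -0.38 ± 0.11 (-0.61 to -0.15; adjusted p = 0.174). Hspe1 had 12.2 to 56.1 CPM (median 46.6) in naproxen jejuna, against 44.5 to 71.7 CPM (median 60.4) in control jejuna, and differed by -0.49 ± 0.23 (adjusted p = 0.286). Naproxen replicate 7 had the lowest Hspe1, and the difference was -0.31 without it.

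Hsph1 and Hsp90aa1 were also measured lower, with 1 naproxen jejunum, replicate 3, at the top of its group in both. Hsph1 had 24.2 to 45.0 CPM (median 28.3) in naproxen jejuna, against 24.6 to 63.6 CPM (median 35.8) in control jejuna, a difference of -0.38 ± 0.17 (adjusted p = 0.274). Hsp90aa1 had 81.0 to 173 CPM (median 131) in naproxen jejuna, against 127 to 207 CPM (median 165) in control jejuna, a difference of -0.29 ± 0.13 (adjusted p = 0.281). The groups overlapped for both genes, with 6 of 7 naproxen jejuna below the control median in each. Hspa1b differed by -0.51 ± 0.28 (adjusted p = 0.358), Hspa1a by -0.29 ± 0.28 (adjusted p = 0.603) and Hspd1 by -0.18 ± 0.15 (adjusted p = 0.561). Hspb1 (0.18 ± 0.27) and Bag3 (0.04 ± 0.13) were the 2 genes measured above control.

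In naproxen against control jejuna edgeR called 0 of 10 genes (0.0116% of all genes), and 5 of 10 passed unadjusted, all lower (16% of all genes). DESeq2 called 1 of them, Hspa8 (adjusted p = 0.0225), and 0.575% of the genes it gave an adjusted p. The median over the 10 genes was -0.33, against 0.02 over all genes. The jejuna had been dissected in 4 batches that each held every treatment, and the model had batch as a term. Within the 4 batches Hspa8 was lower in 4 of 4 (-0.67 to -0.22), as were Dnajb1 (-0.78 to -0.14), Hsp90aa1 (-0.64 to -0.08) and Hspe1 (-1.11 to -0.03). Hsph1 was lower in 3 of 4 batches (-0.86 to 0.10). Batches 1 to 3 held 2 naproxen jejuna each. Batch 4 held 1, which gave the lowest values of Hspa8, Dnajb1 and Hsph1. Hspa8 was also lower in 4 of 4 batches with celecoxib (-0.17 to -0.07), and Dnajb1 with tryptophan alone (-0.21 to -0.12). A count of batches is therefore a description and no test. Naproxen jejuna 6 and 7, which were the naproxen jejuna of batch 1, and naproxen plus tryptophan jejunum 7 stood apart with 12.5%, 12.1% and 12% of counts from mitochondrial genes, against 3.11% to 8.58% in the other 35 jejuna. Batch 1 had the lowest Hspe1 (-1.11), Hsp90aa1 (-0.64) and Hspd1 (-0.64) of the batches. In a fit without these 3 jejuna, added after the data had been seen, 2 of the 10 genes passed unadjusted in naproxen against control jejuna and 0 adjusted. Dnajb1 then differed by -0.46 (adjusted p = 0.135) and Hspa8 by -0.37 (adjusted p = 0.149). The differences of Hspe1 (-0.23), Hsp90aa1 (-0.17), Hspa1b (-0.32), Hspa1a (-0.10) and Hspd1 (-0.05) were over 1.5 times smaller than with all jejuna, and that of Hsph1 was -0.34. Those of Hspb1 (0.41) and Bag3 (0.16) were larger.

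**Figure D2:**
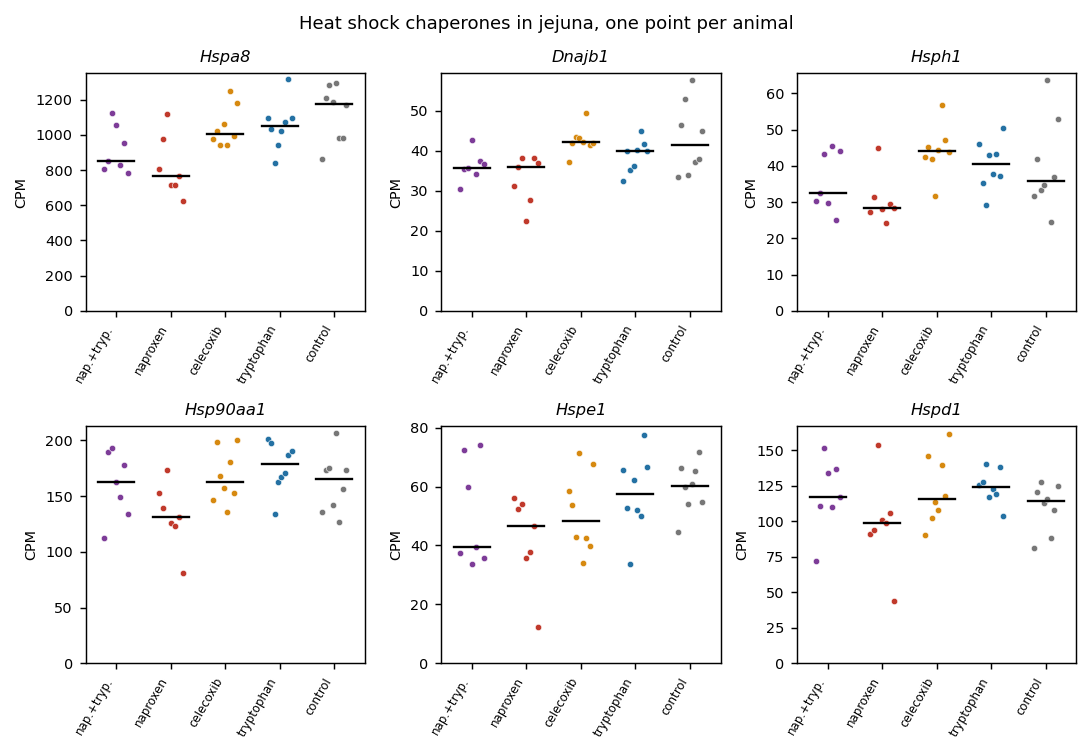
CPM of Hspa8, Dnajb1, Hsph1, Hsp90aa1, Hspe1 and Hspd1 in each jejunum (linear axes from 0), with a bar at the group median and 1 point per animal. For Hspa8, 5 of the 7 naproxen jejuna lie below the lowest control, and for Hsph1 6 of the 7 lie below the lowest celecoxib jejunum.

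Celecoxib, which inhibits the inducible cyclooxygenase selectively, was fed at 550 ppm, while naproxen was fed at 1323 ppm, so the drugs were compared at different doses. Celecoxib against control jejuna gave differences between -0.23 (Hspe1) and 0.25 (Hspb1), with intervals of -0.67 to 0.21 and -0.28 to 0.77. For celecoxib edgeR called 0 of 10 (0% of all genes), 0 passed unadjusted (4.37% of all genes), and DESeq2 called 0 (0% of all genes). Naproxen against celecoxib had all 10 genes on the lower side. Hsph1 had 24.2 to 45.0 CPM (median 28.3) in naproxen jejuna, against 31.7 to 56.7 CPM (median 44.2) in celecoxib jejuna, with 6 of 7 below the lowest celecoxib value. Its log2 difference was -0.53 ± 0.17 (-0.86 to -0.19; adjusted p = 0.131). Dnajb1 (-0.37 ± 0.11; adjusted p = 0.124) and Hspa8 (-0.36 ± 0.12; adjusted p = 0.140) each had 5 of 7 naproxen jejuna below the lowest celecoxib jejunum. Hsp90aa1 (-0.34 ± 0.13; adjusted p = 0.180) and Hspd1 (-0.33 ± 0.15; adjusted p = 0.247) followed, and the Hspd1 difference was -0.21 without naproxen replicate 7. Between the drugs edgeR called 0 of 10 genes (0% of all genes) and 5 passed unadjusted (18.7% of all genes). DESeq2 called 0 of them (1.56% of the genes it gave an adjusted p). Without the 3 jejuna of high mitochondrial share edgeR called 1 of the 10, Dnajb1 (-0.44; adjusted p = 0.0333), among 1404 genes in all. Hspa8 was then at -0.26 (adjusted p = 0.178), Hsp90aa1 at -0.22 (adjusted p = 0.295) and Hspd1 at -0.20 (adjusted p = 0.370), while Hspa1a, Hspb1, Hspe1 and Bag3 lay between 0.02 and 0.18, above celecoxib. Naproxen against control and naproxen against celecoxib share the naproxen jejuna.

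Tryptophan alone gave jejunal differences between -0.45 (Hspa1b) and 0.18 (Hspd1), with adjusted p = 0.999 for both. For tryptophan edgeR called 0 of 10 (0% of all genes), 0 passed unadjusted (2.65% of all genes), and DESeq2 called 0 (0% of all genes). With both agents Hspa8 had 785 to 1126 CPM (median 853) in naproxen plus tryptophan jejuna, against 863 to 1297 CPM (median 1177) in control jejuna. All 7 lay below the control median, and the difference was -0.29 ± 0.12 (adjusted p = 0.765). Dnajb1 differed by -0.25 ± 0.11 (adjusted p = 0.808). The combination gave 0 of 10 past edgeR's adjusted threshold (0% of all genes), 2 unadjusted (5.98% of all genes) and 0 called by DESeq2 (0.0582% of all genes). Naproxen plus tryptophan against naproxen had all 10 genes on the higher side, between 0.03 (Hspb1) and 0.28 (Hspd1 and Hsp90aa1). Hsp90aa1 was the 1 gene of 10 past the unadjusted threshold there (0.28 ± 0.14; adjusted p = 0.996), against 3.66% of all genes, with 0 of 10 past the adjusted one (0% of all genes) and 0 called by DESeq2 (0.0582% of all genes). Without the 3 jejuna of high mitochondrial share the Hsp90aa1 difference was 0.20 (adjusted p = 0.795), and Hspa1a (-0.06), Hspb1 (-0.25) and Bag3 (-0.04) lay below naproxen. The interaction of naproxen with tryptophan was largest for Hspa1b (0.67 ± 0.39; adjusted p = 1), with 0 of 10 adjusted (0% of all genes), 0 unadjusted (3.4% of all genes) and 0 by DESeq2 (0.0116% of all genes).

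Other chaperones in naproxen against control jejuna fell on both sides, and none passed the adjusted threshold. At an unadjusted p under 0.05, 16% of all genes passed there. All 8 TRiC subunits were measured lower, 3 of them unadjusted (median -0.20), and 8 of 9 further mitochondrial chaperones were lower, 4 unadjusted (median -0.17). Of the 12 genes for HSP90 and its partners, 10 were lower, 4 unadjusted (median -0.11). All 5 other small heat shock proteins tested were measured higher (median 0.57), 0 of them unadjusted. The median summed level of other cytosolic HSP70 and HSP110 genes was 263 CPM in naproxen jejuna, against 266 CPM in control jejuna. In the same order it was 551.7 and 539.3 CPM for cytosolic J proteins and 312 and 318.5 CPM for exchange factors. For chaperones of the endoplasmic reticulum it was 2455 and 2474 CPM. Ranges overlapped for each of these lists and no sum was tested. Hsf1 had 14.8 to 21.2 CPM (median 16.9) in naproxen jejuna, against 9.48 to 16.5 CPM (median 13.2) in control jejuna. The difference was 0.39 ± 0.14 (adjusted p = 0.210), on the opposite side from most of the chaperones. Markers of other cell types were also measured at other levels in these jejuna. All 4 adipocyte markers were lower, 4 unadjusted (median -2.62), with sums of 0.0430 to 16.7 CPM in naproxen jejuna, against 0.406 to 41.8 CPM in control jejuna. All 4 Paneth and goblet markers were lower, 3 unadjusted, with sums of 6231 to 14130 CPM in naproxen jejuna, against 8376 to 19140 CPM in control jejuna. All 8 enterocyte markers were lower, 0 unadjusted, with sums of 10190 to 30250 CPM in naproxen jejuna, against 14470 to 41840 CPM in control jejuna, and all 4 B cell markers were higher, 0 unadjusted (median 1.03). Their part in the chaperone values was not tested.

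Because naproxen plus tryptophan against control had opposite signs in the 2 tissues for most of the genes, the difference itself was tested, in a comparison added after the data had been seen. Heart of experiment 2 minus jejunum, the naproxen plus tryptophan effect differed by 0.63 ± 0.15 for Hspa8 (0.32 to 0.94; adjusted p = 0.116). It differed by 0.83 ± 0.22 for Dnajb1 (adjusted p = 0.133), 1.77 ± 0.46 for Hspa1b (adjusted p = 0.133) and 1.55 ± 0.48 for Hspa1a (adjusted p = 0.171). Hspe1 differed by 0.70 ± 0.32 (adjusted p = 0.350). By edgeR 0 of 10 passed the adjusted threshold (0% of all 18457 genes) and 5 passed unadjusted (12.5% of all genes). DESeq2 called 3 of the 10, which were Hspa8 (adjusted p = 0.00707), Hspa1b (adjusted p = 0.0263) and Dnajb1 (adjusted p = 0.0313). It called 1.08% of the genes it gave an adjusted p. For naproxen alone the same difference was 0.53 ± 0.16 for Hspa8 (adjusted p = 0.286) and 0.66 ± 0.33 for Hspe1 (adjusted p = 0.380). The Hspe1 value was 0.43 without naproxen jejunum replicate 7 and 0.35 without the 3 jejuna of high mitochondrial share. There 0 of 10 passed the adjusted threshold by edgeR (0% of all genes) and 2 passed unadjusted (13.1% of all genes). DESeq2 called 0 of them (0.31% of the genes it gave an adjusted p). The contrast compares different cohorts and library kits as well as tissues, and these cannot be told apart.

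**Figure D3:**
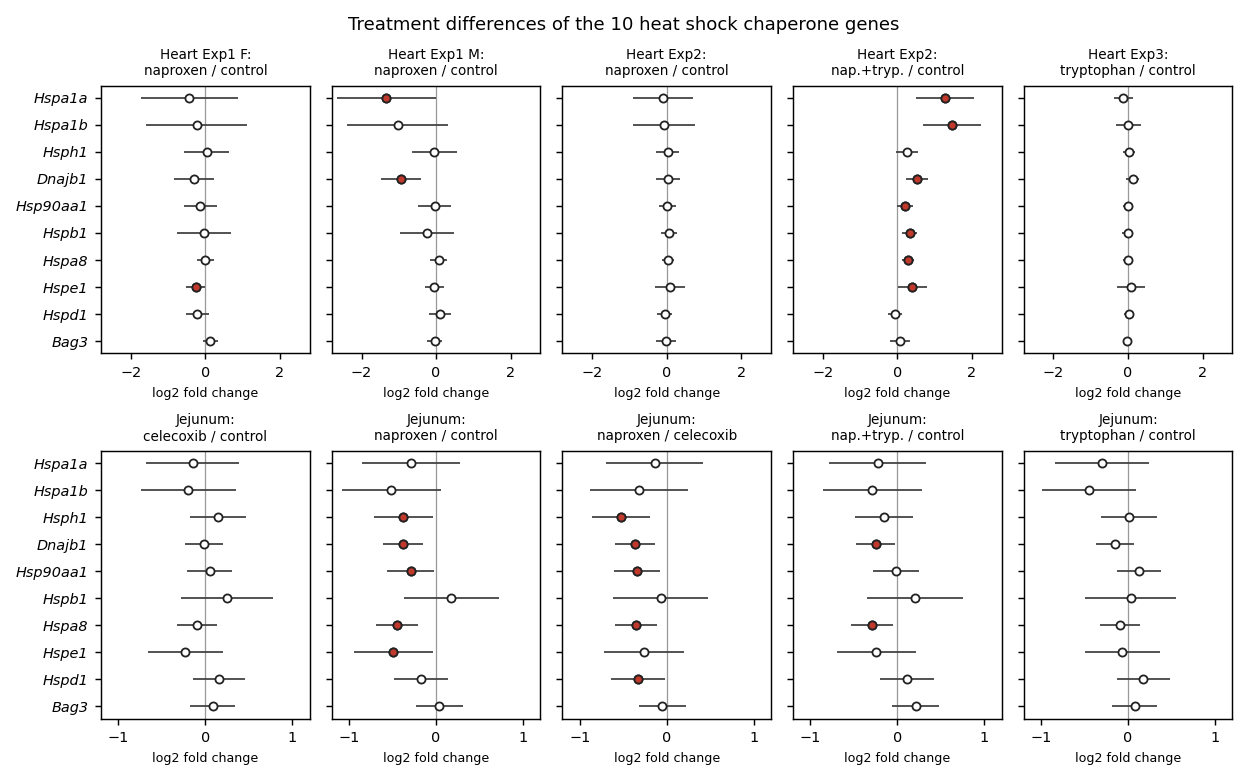
Log2 fold change of each of the 10 genes in 10 treatment comparisons, hearts above and jejuna below on a narrower axis, with 95% intervals from the edgeR model. Filled points have an unadjusted p under 0.05 and none passed the adjusted threshold. In hearts the filled points lie right of 0 for naproxen plus tryptophan against control. In experiment 1 they lie left of 0, for Hspa1a and Dnajb1 in males and Hspe1 in females. In jejuna they all lie left of 0.

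The 10 genes did not move as 1 block from animal to animal. After each group's mean was removed, Pearson's r of log2 CPM over the 59 hearts was 0.955 for Hspa1a with Hspa1b, 0.881 for Hsph1 with Hsp90aa1 and 0.794 for Hspa1a with Dnajb1. The lowest value in hearts was -0.523, between Hspe1 and Bag3, and the median over the 45 pairs was 0.265, with 35 pairs positive. Over the 38 jejuna the highest r was 0.83, for Hsp90aa1 with Hspd1, and the lowest -0.576, for Dnajb1 with Hspb1. The median over pairs was 0.102, with 26 pairs positive. Hspa1a and Dnajb1, which varied together in hearts, had r = -0.338 in jejuna, while the mitochondrial partners Hspe1 and Hspd1 had r = 0.698 in jejuna and -0.134 in hearts. Pairs share libraries and their scaling, and Hspa1a and Hspa1b share reads, so these values are descriptions without a test.

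**Figure D4:**
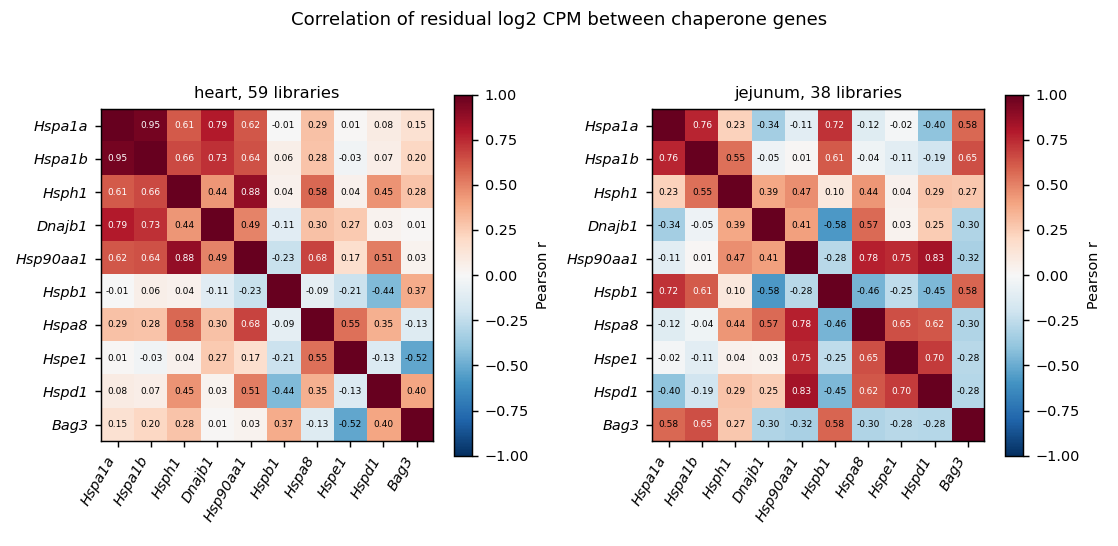
Pearson's r between the 10 genes over animals, for log2 CPM after removal of group means (and of dissection batch where it was labelled), in 59 hearts on the left and 38 jejuna on the right. Every pair among Hspa1a, Hspa1b, Hsph1, Dnajb1 and Hsp90aa1 is positive in hearts, up to 0.955, as is every pair among Hsp90aa1, Hspa8, Hspe1 and Hspd1 in jejuna, up to 0.83.

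Among all other genes whose mean reached 1 CPM, those most like the sum of Hspa1a and Hspa1b were found in the same way. Over the 59 hearts and 12977 genes the first was Dnaja1, another cytosolic J protein, with r = 0.707, followed by Trim65 (0.582), Ahsa2 (0.564), Slc5a3 (0.532), Ccdc117 (0.523), Otud1 (0.504), Slc35e2 (0.486) and Sntb1 (0.483). Dnaja1 kept a positive r within experiment 1 (0.765), experiment 2 (0.614) and experiment 3 (0.569). In experiment 3 r was negative for Slc5a3, a myo-inositol transporter (-0.496), Slc35e2 (-0.123) and Sntb1 (-0.087). It was 0.175 for Ahsa2 and 0.219 for Trim65 there. Within experiment 1 each of the listed heart genes had an r of at least 0.558. Over the 38 jejuna and 15055 genes the list was different in every name, with Evl (0.76), Rasgrp2 (0.731), Tbxa2r (0.719), Pitpnm2 (0.717), Dzip1l (0.716), Mtss2 (0.715), Kctd15 (0.714) and Zdhhc8 (0.714).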

How the data were processed

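Poly-A selected RNA from hearts and RNA depleted of ribosomal RNA from jejuna was sequenced. The authors quantified transcripts with Salmon 1.9.0 on GRCm38 and used R 4.2.2, per the submitters' processing notes, and deposited estimated counts per gene, of which 24.6% (96.9% for the 10 genes) are not whole. Their annotation release and the step from transcripts to genes are not given in the sources used here. These expected counts were rounded to whole numbers. Genes were kept by edgeR's filterByExpr at a minimum count of 10, scaled by TMM and tested with edgeR 4.0.16 (glmQLFit, robust, glmQLFTest; R 4.3.3), with 1 model for each experiment and dissection batch as a term in experiments 3 and 4. A joint model held females of experiment 1 with controls and naproxen of experiment 2, and another held hearts of experiment 2 with jejuna. Intervals are the model's standard error times the quantile of its t distribution. The procedure was tested on simulated data. DESeq2 1.42.0, scaling, filtering, blocking, summing the pair, leaving out each library and leaving out 3 jejuna with over 10% mitochondrial counts were the alternatives. Gene positions come from GENCODE vM21, promoters from RefSeq's GRCm38.p6 table. The genes and lists were chosen with earlier results of these data known. The 10 genes and Hsf1 are named throughout, other chaperones only by counts unless called, and the 8 genes most like the Hspa1a and Hspa1b sum by Pearson's r of residual log2 CPM (prior count 2). Animal numbers are specific to treatment and cohort, and every library is 1 animal. Intervals and tests cover the spread between animals of a cohort. The number of counts limits Hspa1a and Hspa1b, with 27 to 781 counts a library in hearts of experiment 2.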

Additional observations from a re-analysis of the deposited data

Results flagged for a closer look

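Over the 10 genes and 14 groups, 8 of 140 gene and group sets held a library far from the others, by the gap to its nearest neighbour relative to the group's range (Dixon's test at 95%). Chance flags about 1 in 20 such sets if values are normally distributed and sets independent, and the count found is near that rate. Normality of CPM was not checked, and Hspa1a and Hspa1b share reads. Each flagged library was the highest of its group. Naproxen plus tryptophan replicate 7 of experiment 2 stood above its group for Hspa1a (13.4 CPM, next 5.41), Hspa1b (13.2 CPM, next 5.97) and Hsph1 (67.9 CPM, next 41.2). Control replicate 8 of experiment 2 stood above its group for Hspa1a (4.59 CPM, next 2.12) and Hspa1b (3.77 CPM, next 1.89). The others were Hspb1 in control female replicate 1 of experiment 1 (72.4 CPM, next 31.1), Hspb1 in control jejunum replicate 1 (17.9 CPM, next 12.2) and Hsph1 in naproxen jejunum replicate 3 (45.0 CPM, next 31.4). Leaving out either heart moved the naproxen plus tryptophan difference of Hspa1a from control, to 0.86 without treated replicate 7 and to 1.57 without control replicate 8.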

How the results depend on the processing

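The count of genes called among the 10, which was 0 by edgeR in each of the 17 comparisons, moved under 4 alternatives. DESeq2 called 5 in naproxen plus tryptophan against control hearts, 2 against naproxen hearts, 1 in naproxen against control jejuna and 3 for the heart minus jejunum difference of naproxen plus tryptophan. With no filter on low counts edgeR called 1 gene, Hspe1, in naproxen against control jejuna (adjusted p = 0.00643) and 1, Hsph1, in naproxen against celecoxib jejuna (adjusted p = 0.00194), among 1182 and 1784 genes called in all. Leaving out 1 library at a time gave 0 to 1 for the heart minus jejunum difference, where Hspa8 passed without jejunum control replicate 1 (adjusted p = 0.0497) or naproxen plus tryptophan replicate 6 (adjusted p = 0.0337), and 0 in the other comparisons. Without the 3 jejuna of high mitochondrial share, an alternative added after the data had been seen, 1 of the 10 was called in naproxen against celecoxib jejuna and 0 in the other jejunal and heart minus jejunum comparisons. The cause of these moves was not tested. In naproxen plus tryptophan against control hearts, 5 to 8 of the 10 genes passed unadjusted when each heart was left out, and in naproxen against control jejuna 2 to 5. Adjusted p ran from 0.0599 to 0.169 for Hspa1b and from 0.0510 to 0.175 for Hspa8 in the hearts. Genes called over the whole table varied more. In naproxen plus tryptophan against control hearts there were 41 with edgeR, 460 with DESeq2, 9 without the filter and 7 to 99 with a library left out. In naproxen against celecoxib jejuna there were 0 with edgeR, 253 with DESeq2, 498 without naproxen replicate 6 and 1404 without the 3 jejuna of high mitochondrial share. With the replicate number as a block (replicate block), 0 of the 10 genes were called in any comparison, and 6 in place of 7 passed unadjusted in naproxen plus tryptophan against control hearts, where 4 genes in all were called. The labels tie no animals together by number. The mean correlation of same-numbered animals' deviations was 0.11, 0.01, 0.21 and 0.14 in experiments 1 to 4, against -0.01, 0.00, -0.03 and -0.02 for other pairs. It was over 0.1 in 5 of 10, 10 of 22, 6 of 8 and 36 of 73 same-numbered pairs, and not in every pair of any experiment. For the naproxen effect in males minus females, where sex and dose go together, the replicate block gave -0.63 for Dnajb1 (adjusted p = 0.636). This use of the block was also added after the data had been seen. Depth limits Hspa1a and Hspa1b, at 27 to 781 counts a library in experiment 2.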
